A study of Mus musculus with 16 samples.

Results

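Hydrogen peroxide and superoxide are removed in liver cells by a small set of enzymes, and the 10 genes described here encode its core: the superoxide dismutases Sod1 and Sod2, catalase (Cat), the peroxiredoxins Prdx1 to Prdx6, and thioredoxin 1 (Txn1), which reduces peroxiredoxins. They were taken from the deposited liver RNA-seq table by gene name, as 10 of its 57010 genes, and all 10 were among the 11766 genes expressed highly enough to be tested. The rule itself used no measured value. The levels were read in all 16 libraries, 1 for each mouse. Each sample title names replicates of 1 mouse number, while the table has 1 column a mouse. These replicates were taken as runs or read files of 1 library.

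The study asked how cadmium (Cd) harms the liver and whether selenium (Se) given beforehand and alongside alters that harm. All mice were wild-type (WT) male C57BL/6J animals with no transgene or deletion. The control group, mice 27, 28, 29 and 30, received neither agent. The Cd group, mice 1, 2, 5 and 6, received CdCl2 intraperitoneally at 1.25 mg/kg for 7 days. The Se group, mice 39, 40, 41 and 44, ate a diet with selenomethionine (SeMet) at 2 ppm for 3 months. The Cd+Se group, mice 13, 14, 15 and 16, had that diet for 3 months and the Cd dose in its last 7 days. Whole liver was used, so a level is an average over all cell types, and fewer cells of a type cannot be told apart from less RNA per cell.

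Levels are in TPM (transcripts per 1000000 transcripts), which divide reads by transcript length and set every library to the same total, so a value is a share of the messenger RNA and levels may be compared between genes. Superoxide is formed mainly where electrons leak from respiration or are passed on by oxidases, and superoxide dismutases turn it into hydrogen peroxide. Catalase, stored in peroxisomes and very abundant in hepatocytes, breaks hydrogen peroxide down to water and oxygen at high concentrations. Peroxiredoxins reduce it at low concentrations with a reactive cysteine, and most of them are then recharged by thioredoxin with electrons from NADPH. Cd is known for binding thiols, and Se is the element that thioredoxin reductases and several glutathione peroxidases carry in their active site.

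The reactive cysteine shows how the peroxiredoxins divide. The coding stretches below were read from GENCODE M21 transcripts (GRCm38) and hold 33 bases each in the direction of transcription, with the codon of the reactive cysteine in capitals. They are shown so that Prdx5, the 1 peroxiredoxin called in the comparisons, can be set beside its relatives.
Prdx1 (chr4:116691808-116691840, plus strand): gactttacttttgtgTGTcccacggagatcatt
Prdx2 (chr8:84970468-84970500, plus strand): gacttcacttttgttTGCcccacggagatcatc
Prdx3 (chr19:60870112-60871424, minus strand): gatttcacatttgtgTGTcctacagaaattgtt
Prdx4 (chrX:155332445-155334842, minus strand): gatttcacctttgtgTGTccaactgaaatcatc
Prdx5 (chr19:6907665-6908005, minus strand): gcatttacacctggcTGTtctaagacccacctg
Prdx6 (chr1:161247353-161247385, minus strand): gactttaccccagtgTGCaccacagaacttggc
The stretches of Prdx3, Prdx4 and Prdx5 each span a splice junction, so their coordinates enclose an intron. The stretch of Prdx1 was identical to that of Prdx2 at 29 of 33 bases (87.9%) and to that of Prdx4 at 26 of 33 (78.8%). Prdx3 and Prdx4 shared 27 of 33 bases (81.8%). The stretch of Prdx5, an atypical enzyme that uses its cysteines within 1 molecule, shared 16 of 33 bases (48.5%) with Prdx1. That of Prdx6, which has only 1 reactive cysteine and relies on glutathione, shared 20 of 33 (60.6%) with Prdx1.

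The 10 transcripts lay far apart in level (the plot of TPM by mouse). In control mice Sod1, the copper and zinc enzyme of the cytosol, stood highest at 1087 ± 83.8 TPM (SD, n = 4). Cat followed at 1044 ± 93.4 TPM, and the ranges of Sod1 and Cat overlapped between mice. Prdx1, the main cytosolic peroxiredoxin of liver, stood at 798 ± 74.6 TPM, below every control value of Cat. Prdx6 stood at 411 ± 32.8 TPM, with its range clear of its neighbours. Txn1 at 156 ± 12.1 TPM and Prdx5 at 139 ± 12.5 TPM overlapped each other. Prdx4 at 91.6 ± 7.20 TPM, Prdx2 at 85.1 ± 8.86 TPM, Prdx3 at 76.5 ± 6.09 TPM and Sod2 at 75.0 ± 12.2 TPM came last, each overlapping its neighbour in that order. Even Sod2 stood above 90.9% of the genes tested.

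**Figure D1:**
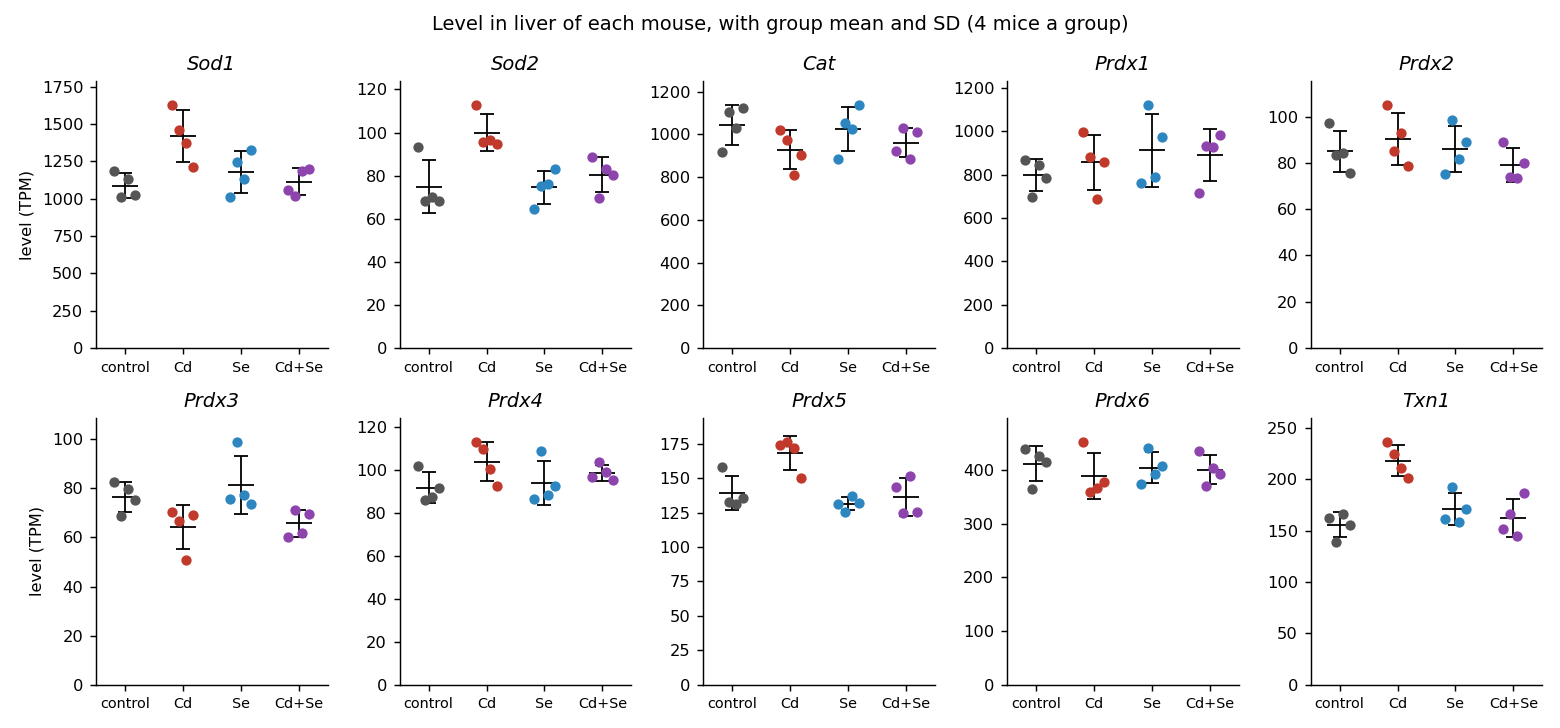
Level of each of the 10 genes in TPM (vertical axis, from 0) in the liver of each mouse, by group, with 1 point a mouse and black bars for the mean and SD of 4 mice. The Cd points of Txn1, Sod1 and Sod2 all lie above the control points, and the Cd+Se points of these 3 genes all lie below the Cd points.

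In Cd mice 4 of the 10 transcripts were called higher than in control mice and 0 lower. Txn1 was 1.40-fold of control, Sod2 1.34-fold, Sod1 1.30-fold and Prdx5 1.21-fold. Cat, Prdx1, Prdx2, Prdx3, Prdx4 and Prdx6 did not pass. The test was limma on log2(TPM + 1) in a model of all 16 libraries, with p-values adjusted over all 11766 genes by the Benjamini-Hochberg method and a threshold of 0.05. Of all genes tested, 5.82% were called higher and 24.9% lower in Cd against control, and the median gene moved by -0.17 on the log2 scale. The members' median was 0.14. Relative to the median gene, Txn1 stood 0.66 higher, Sod2 0.59, Sod1 0.55 and Prdx5 0.44.

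Txn1, the cytosolic thioredoxin that reduces peroxiredoxins and other protein disulfides, held 163, 139, 166 and 155 TPM in control mice 27, 28, 29 and 30. In Cd mice 1, 2, 5 and 6 it held 236, 225, 211 and 201 TPM. All 4 Cd mice lay above all 4 control mice, with a gap between 166 and 201 TPM. The log2 change was 0.49 (95% interval 0.26 to 0.71, limma adjusted p = 0.00358). It was past the threshold in all 25 alternative fits, at 0.43 to 0.71, while no member reached a log2 change of 1. The gene lies at chr4:57943373-57956411 on the minus strand (GRCm38).

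Sod1, at chr16:90220754-90226329, held 1183, 1009.9, 1131 and 1025 TPM in control mice 27, 28, 29 and 30. In Cd mice 1, 2, 5 and 6 it held 1625, 1462, 1371 and 1212 TPM. The Cd values did not overlap the control values, and mouse 6 came nearest to the highest control, mouse 27. The log2 change was 0.38 (95% interval 0.13 to 0.63, adjusted p = 0.0235). Sod1 missed the threshold without control mouse 28 (0.34, adjusted p = 0.0702), control mouse 30 (0.35, adjusted p = 0.0616), Cd mouse 1 (0.31, adjusted p = 0.0631) or Cd mouse 2 (0.36, adjusted p = 0.0523). It missed it also under quantile normalization (0.17, adjusted p = 0.219) and with a correction for transcript length and GC content (0.24, adjusted p = 0.0594).

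Sod2, the manganese enzyme of the mitochondrial matrix, lies at chr17:13006846-13040063. It held 93.2, 68.1, 70.2 and 68.25 TPM in control mice 27, 28, 29 and 30, and 113, 95.45, 96.6 and 94.7 TPM in Cd mice 1, 2, 5 and 6. The lowest Cd mouse exceeded the highest control mouse by a narrow margin, since control mouse 27 stood apart from its group at 93.2 TPM. The log2 change was 0.42 (95% interval 0.16 to 0.68, adjusted p = 0.0177). Sod2 missed the threshold without control mouse 28 (0.38, adjusted p = 0.0558), 29 (0.39, adjusted p = 0.0524) or 30 (0.38, adjusted p = 0.0515), and passed in the other 22 of 25 settings. With the length and GC correction its change was 0.73.

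Prdx5, a peroxiredoxin of mitochondria, peroxisomes and cytosol, lies at chr19:6906697-6910106. It held 158, 133, 131 and 136 TPM in control mice and 174, 176, 172 and 149.8 TPM in Cd mice 1, 2, 5 and 6. Here the groups overlapped, since Cd mouse 6 fell below control mouse 27. The log2 change was 0.27 (95% interval 0.06 to 0.48, adjusted p = 0.0493), just inside the threshold, and it passed in 7 of 25 settings. Leaving out any of 12 of the 16 mice in turn took it over the threshold, with adjusted p up to 0.127, and the length and GC correction left 0.15 (adjusted p = 0.296). Sod1, Sod2 and Txn1 were the members whose Cd mice all lay above the control mice, against 6.44% of all genes tested.

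**Figure D2:**
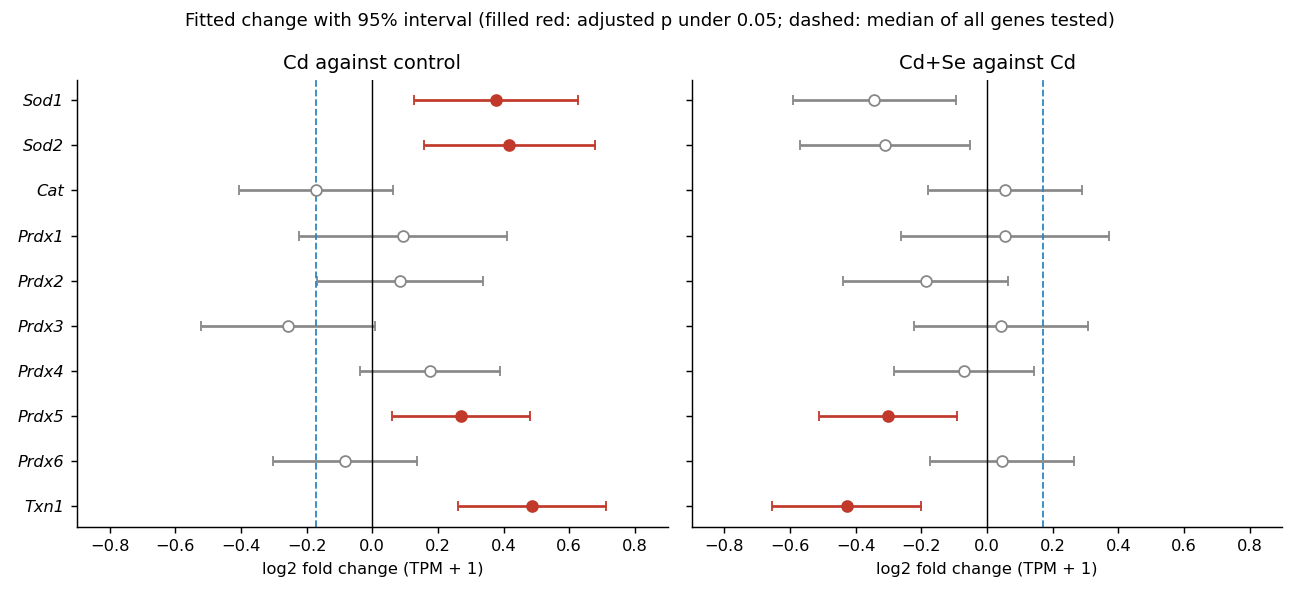
Fitted log2 fold change of each gene with its 95% interval, for Cd against control in the left panel and Cd+Se against Cd in the right, filled red where the adjusted p was under 0.05, with the median of all genes tested dashed. Sod1, Sod2, Prdx5 and Txn1 are filled in the left panel, Prdx5 and Txn1 in the right.

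Catalase did not follow the superoxide dismutases. Cat (chr2:103453849-103485160) held 917, 1103, 1030.4 and 1125 TPM in control mice and 1021, 975, 811 and 905 TPM in Cd mice 1, 2, 5 and 6. The groups overlapped, with Cd mouse 5 lowest of all. The log2 change was -0.17 (95% interval -0.41 to 0.06, adjusted p = 0.257), which equals the change of the median gene. It was -0.33 under quantile normalization (adjusted p = 0.0212) and 0.05 when each library was centred on its median, so its direction depended on the scaling.

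The other peroxiredoxins held levels near those of control, with different signs. Prdx3 (chr19:60864051-60874556), the mitochondrial matrix enzyme, held 82.6, 68.6, 79.6 and 75.3 TPM in control mice and 70.3, 66.6, 50.8 and 69.1 TPM in Cd mice 1, 2, 5 and 6, and its log2 change was -0.26 (95% interval -0.52 to 0.01, adjusted p = 0.129). Cd mouse 5 lay well below the other Cd mice, which overlapped the controls. Prdx4 (chrX:155323918-155340754), which works in the endoplasmic reticulum, held 102, 85.8, 87.35 and 91.7 TPM in control mice and 113, 109, 100.2 and 92.6 TPM in Cd mice, with a log2 change of 0.18 (95% interval -0.04 to 0.39, adjusted p = 0.195). The intervals of both genes reach or cross 0, and Prdx4 was called in 2 of 25 settings.

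Prdx1 (chr4:116685544-116700822) ranged from 699 to 867 TPM in control mice and from 689 to 997 TPM in Cd mice, with a log2 change of 0.09 (95% interval -0.22 to 0.41, adjusted p = 0.664). Prdx2 (chr8:84969587-84974834), best known as the abundant peroxiredoxin of red cells, ranged from 75.65 to 97.05 TPM in control mice and from 78.8 to 105 TPM in Cd mice, with a log2 change of 0.08 (95% interval -0.17 to 0.34, adjusted p = 0.624). Prdx6 (chr1:161240112-161251219) ranged from 364 to 439 TPM in control mice and from 359 to 452 TPM in Cd mice, with a log2 change of -0.08 (95% interval -0.30 to 0.14, adjusted p = 0.572). All 3 overlapped between groups over most of their range. The sign of Prdx1 turned under quantile normalization, and that of Prdx6 under median centring and under the length and GC correction.

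The changes of all genes under Cd went with transcript length, and the short transcripts of this set lie where called increases were common. Across 11561 genes, which are not independent replicates, the rank correlation of the log2 change with length was -0.32 (the plot of change against length). Of 4 classes of length, the shortest (114 to 1475 bases) had a median of 0.04 and 12.1% of its genes called higher, against -0.32 and 2.08% in the longest (3732 to 93147 bases). Sod1 (641 bases), Prdx5 (755 bases), Prdx4 (990 bases) and Txn1 (1051 bases) are in the shortest class and Sod2 (5861 bases) in the longest. After a loess correction of each library for length and GC content, the correlation was 0.00 and Sod2 and Txn1 (0.50) were the 2 members called.

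**Figure D3:**
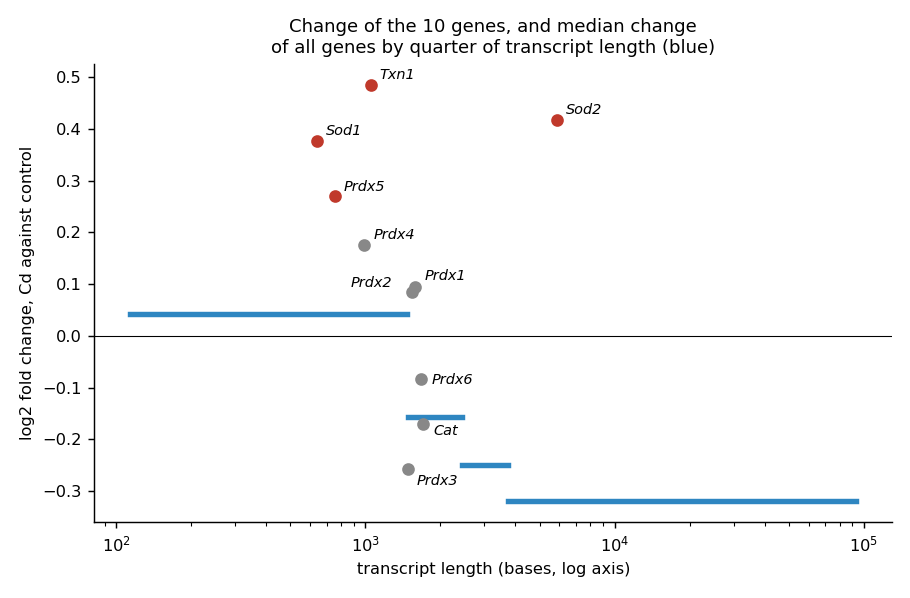
Log2 fold change in Cd against control (vertical axis) against transcript length in bases (horizontal log axis) for the 10 genes, red where called. Blue bars give the median of all genes in each of the 4 length classes, falling from 0.04 to -0.32, and Sod2 lies far above the bar of its class.

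The promoters of the 4 called genes, and of Prdx1 and Prdx4, are shown because the antioxidant and metal response elements are the known sequences through which genes answer thiol-reactive agents and metals. The windows are from RefSeq on GRCm38.p6, with 9 of the 10 members matched and Prdx6 not shown. Each stretch holds 150 bases before the RefSeq start that overlap no GENCODE exon of the gene. For Sod2 and Prdx4, GENCODE also places a start further upstream, so their stretches lie within the span of the gene. Capitals mark a match to either motif.
Txn1 promoter (chr4:57956412-57956561, minus strand): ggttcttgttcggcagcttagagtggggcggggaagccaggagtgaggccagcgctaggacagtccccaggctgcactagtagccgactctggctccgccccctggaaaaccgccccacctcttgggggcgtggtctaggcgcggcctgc
Sod1 promoter (chr16:90220604-90220753, plus strand): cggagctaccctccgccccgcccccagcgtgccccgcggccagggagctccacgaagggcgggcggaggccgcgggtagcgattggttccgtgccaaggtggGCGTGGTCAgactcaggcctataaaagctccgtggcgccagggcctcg
Sod2 promoter (chr17:13007667-13007816, plus strand): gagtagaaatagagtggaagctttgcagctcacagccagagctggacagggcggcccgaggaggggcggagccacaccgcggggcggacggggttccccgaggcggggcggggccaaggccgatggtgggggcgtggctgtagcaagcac
Prdx5 promoter (chr19:6910107-6910256, minus strand): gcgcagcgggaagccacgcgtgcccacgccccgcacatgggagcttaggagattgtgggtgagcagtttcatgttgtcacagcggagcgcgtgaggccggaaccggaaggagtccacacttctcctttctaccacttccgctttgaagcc
Prdx1 promoter (chr4:116685394-116685543, plus strand): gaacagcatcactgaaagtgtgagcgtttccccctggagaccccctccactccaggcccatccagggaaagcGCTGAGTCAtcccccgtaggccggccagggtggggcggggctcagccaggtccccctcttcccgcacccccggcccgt
Prdx4 promoter (chrX:155338475-155338624, minus strand): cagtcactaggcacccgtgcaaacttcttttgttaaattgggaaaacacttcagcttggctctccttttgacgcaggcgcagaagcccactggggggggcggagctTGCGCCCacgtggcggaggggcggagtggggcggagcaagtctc
The antioxidant response element core was searched as TGACNNNGC on both strands over windows of 300 bases around the start, and 12.4% of 32851 promoters held it. Prdx1 held it at -133 to -125 from the start and Sod1 at -56 to -48, both on the reverse strand. The metal response element core was searched as TGCACNC or TGCGCNC on both strands, and 25.7% of promoters held it, among them Prdx4 at -58 to -52. The windows of Txn1, Sod2, Prdx5, Cat, Prdx2 and Prdx3 held neither set of letters. A match describes letters only and is no evidence of a bound factor.

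The comparison of Cd+Se with Cd asked what the Se diet changed in mice that all received Cd. It shares the Cd mice with the comparison above, so a high Cd value enters both. Txn1 was 0.74-fold and Prdx5 0.81-fold of the Cd level, and these 2 members were called lower and none higher. Of all genes tested, 2.35% were called lower and 13.6% higher, and the median gene moved by 0.17. The members' median was -0.13.

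Txn1 held 152, 166, 145 and 187 TPM in Cd+Se mice 13, 14, 15 and 16, against 201 to 236 TPM in Cd mice. All Cd+Se mice lay below all Cd mice, and mouse 16 came nearest. The log2 difference was -0.43 (95% interval -0.65 to -0.20, limma adjusted p = 0.0175), past the threshold in 24 of 25 settings. The exception was a model of these 8 mice alone, with the same difference and an adjusted p of 0.0817. Prdx5 held 144, 125, 152 and 125 TPM in mice 13, 14, 15 and 16, so Cd+Se mouse 15 exceeded Cd mouse 6 at 149.8 TPM. Its log2 difference was -0.30 (95% interval -0.51 to -0.09, adjusted p = 0.0487), past the threshold in 10 of 25 settings. Without Cd mouse 5, the library with the highest mitochondrial share, Txn1 was the 1 member called.

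Sod1 held 1057, 1018, 1183 and 1196 TPM in Cd+Se mice 13, 14, 15 and 16, all below the lowest Cd mouse at 1212 TPM. Its log2 difference was -0.34 (95% interval -0.59 to -0.09) and its adjusted p was 0.0566, outside the threshold. Sod2 held 88.7, 69.7, 83.3 and 80.2 TPM in those mice, also below every Cd mouse, with a log2 difference of -0.31 (95% interval -0.57 to -0.05, adjusted p = 0.0915). Sod1, Sod2 and Txn1 were the members whose Cd+Se mice all lay below the Cd mice, against 3.11% of all genes tested. Sod1 passed the threshold in 3 of 25 settings and Sod2 in 4 of 25.

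The other 6 members overlapped between Cd+Se and Cd, with log2 differences from -0.19 for Prdx2 to 0.05 for Prdx1, and their adjusted p were 0.288 or more. Cat held 922, 1029, 886 and 1009 TPM in Cd+Se mice 13, 14, 15 and 16, with a log2 difference of 0.05 (95% interval -0.18 to 0.29). Prdx3 held 60.2, 71.3, 61.8 and 69.7 TPM, with a log2 difference of 0.04 (95% interval -0.22 to 0.31). The Cd+Se mean was 962 TPM for Cat, against 1044 TPM in control, and 65.8 TPM for Prdx3, against 76.5 TPM, and neither gene was called in any of the 6 comparisons. The signs of Cat, Prdx1, Prdx3 and Prdx6 in this comparison turned under median centring.

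**Figure D4:**
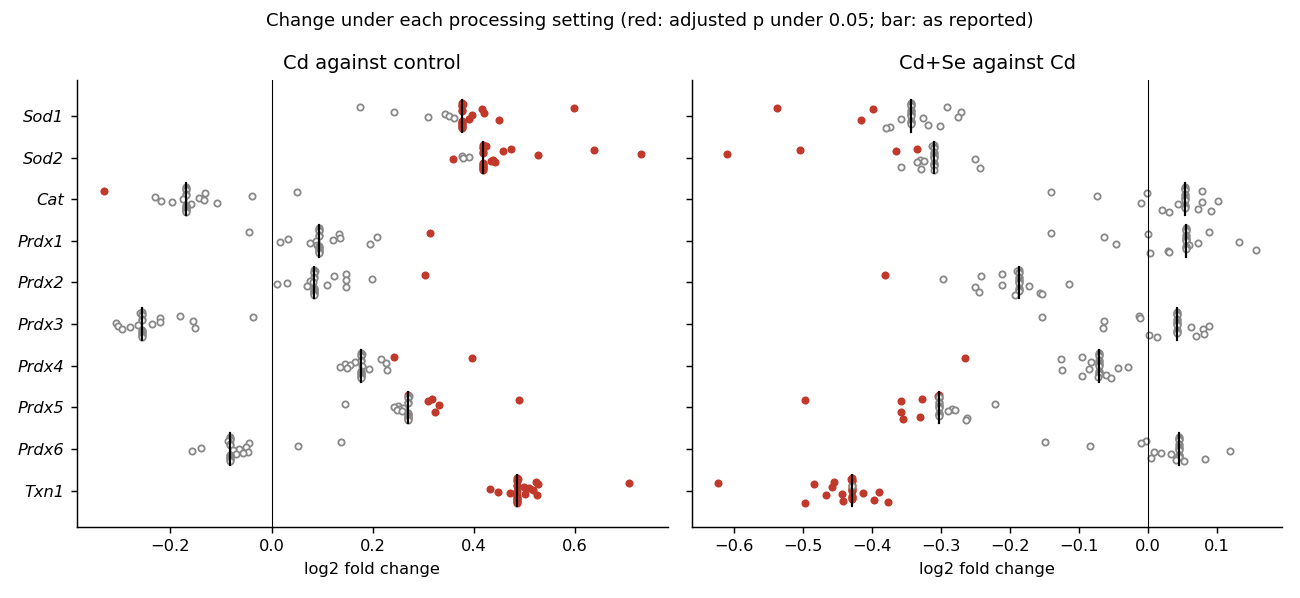
Log2 fold change of each gene under each processing setting (1 point a setting, red where the adjusted p was under 0.05, black bar as reported) for Cd against control (left) and Cd+Se against Cd (right). The points of Txn1 are red in 25 of 25 settings on the left and 24 of 25 on the right, while those of Cat, Prdx1 and Prdx6 lie on both sides of 0.

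Set directly against control, Cd+Se mice gave 0 called members in limma, where 0.484% of all genes were called. An unadjusted p under 0.05 in limma was reached by 0 members and by 1286 of all 11766 genes tested. The log2 differences were 0.06 for Txn1 (95% interval -0.17 to 0.28), 0.11 for Sod2 (95% interval -0.15 to 0.37), 0.03 for Sod1 (95% interval -0.21 to 0.28) and -0.03 for Prdx5 (95% interval -0.24 to 0.18). All 4 genes overlapped between these groups. These intervals do not show equal levels, and the one of Sod2 reaches 0.37.

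Se alone gave 0 called members against control, and limma called 0% of all genes, with 454 genes and 0 members at an unadjusted p under 0.05. Txn1 held 161, 193, 158 and 171 TPM in Se mice 39, 40, 41 and 44, and Sod1 held 1008, 1243, 1133 and 1328 TPM. Both overlapped the control mice. Prdx1 had the widest spread of the set in Se mice, with 763, 1119, 788 and 975 TPM, and its mean of 911 ± 168 TPM was not told apart from control.

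In Cd+Se against Se, the effect of Cd within the Se diet, 0 members were called, where 0.714% of all genes were called. An unadjusted p under 0.05 in limma was reached by 1286 of all 11766 genes tested and by 1 member. That member was Prdx3, with 75.8, 98.9, 77.3 and 73.6 TPM in Se mice 39, 40, 41 and 44, all above the highest Cd+Se value of 71.3 TPM. Its log2 difference was -0.30 (95% interval -0.56 to -0.03, limma adjusted p = 0.387).

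The interaction asks whether Cd changed a gene by a different amount on the Se diet than without it. In limma 0 members were called, where 1.04% of all genes were called. Unadjusted p-values under 0.05 in limma were held by 2505 of all 11766 genes tested, 2 members among them. For Txn1 the Cd change was 0.56 smaller on the Se diet on the log2 scale (interaction -0.56, 95% interval -0.88 to -0.24, adjusted p = 0.0728), and 4 of 24 settings took it past the threshold. For Sod1 the interaction was -0.45 (95% interval -0.81 to -0.10, adjusted p = 0.140). A different response on the Se diet was therefore not called for either gene in this fit, and 1 of 24 settings called it for Sod1.

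The partners of these enzymes were called in both directions (the plot of pathway counts). The lists were written from general knowledge with earlier results of these data known, and their counts are to be read beside the shares of all genes given above. For these lists 10 alternative settings were run, among them every scaling and the fit without Cd mouse 5. On the superoxide side, which holds copper delivery and the oxidases that make superoxide, 2 of 11 genes rose in Cd against control and 2 fell. Atox1, the copper chaperone, rose from 124.5 ± 18.5 to 179 ± 14.97 TPM (log2 change 0.53, adjusted p = 0.00780). Slc31a1, the copper importer, fell from 67.8 ± 3.87 to 42.9 ± 8.47 TPM (log2 change -0.67, adjusted p = 0.00202). Both were called in the opposite direction in Cd+Se against Cd, at 131 and 64.6 TPM in Cd+Se mice. Both were called in 10 of 10 settings in Cd against control. Between Cd+Se and Cd, Atox1 was called in 7 of 10 settings and Slc31a1 in 9 of 10. With only the groups compared neither passed (adjusted p = 0.0828 and 0.0731), and without Cd mouse 5 Atox1 did not pass (adjusted p = 0.0554). Ccs, which hands copper to Sod1, was 145 TPM in control and 154 TPM in Cd mice (adjusted p = 0.566). Cybb, the catalytic subunit of the phagocyte oxidase, fell from 3.10 ± 0.64 to 1.78 ± 0.24 TPM (adjusted p = 0.0146). It did not pass under median centring (limma adjusted p = 0.0872) or with the length and GC correction (limma adjusted p = 0.189).

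Among 15 tested genes of the thioredoxin and peroxiredoxin cycle, 1 rose and 2 fell under Cd. Txnl1, a thioredoxin-like protein of the proteasome, rose from 59.8 ± 12.5 to 87.5 ± 12.9 TPM (log2 change 0.55, adjusted p = 0.0169). Sesn3, a sestrin, fell from 3.67 ± 0.44 to 2.15 ± 0.42 TPM (adjusted p = 0.0160), and Glrx, a glutaredoxin, fell from 42.0 to 29.2 TPM (adjusted p = 0.0287). Glrx was called in 6 of 10 settings. Sesn3 did not pass under median centring (limma adjusted p = 0.0613) or without Cd mouse 5 (limma adjusted p = 0.0523). Txnrd1, the selenium-containing reductase that recharges Txn1, held 50.4 ± 2.73 TPM in control, 37.8 ± 7.70 in Cd and 56.8 ± 12.6 in Cd+Se mice, and its differences did not pass (adjusted p = 0.0954 between Cd and control and 0.0506 between Cd+Se and Cd). The difference between Cd+Se and Cd passed in 4 of 10 settings. Of the 9 genes of NADPH supply, 0 were called in either comparison by limma, and in other settings up to 2 were called higher in Cd against control and up to 2 lower in Cd+Se against Cd. Across the settings 1 to 5 genes of the thioredoxin list were called higher and 0 to 2 lower in Cd against control, and 0 to 2 higher and 0 to 4 lower between Cd+Se and Cd.

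Of 8 tested oxidases that make hydrogen peroxide in peroxisomes, the organelle of catalase, 4 fell and 0 rose in Cd against control, with a list median of -0.51 against -0.17 for all genes. Uox, urate oxidase, fell from 2883 ± 320 to 1398 ± 485 TPM (log2 change -1.13, adjusted p = 0.00300), and was 2222 ± 479 TPM in Cd+Se mice. Acox3, an acyl-CoA oxidase, fell from 13.1 ± 1.71 to 5.81 ± 1.33 TPM (log2 change -1.07, adjusted p = 0.000339). Of 13 peroxins, which import catalase and other enzymes or build the membrane, 5 fell and 0 rose. Pex26 fell from 17.8 ± 3.995 to 5.76 ± 0.55 TPM (log2 change -1.45, adjusted p = 0.00102) and Pex19 from 54.8 ± 4.07 to 31.9 ± 4.34 TPM (log2 change -0.77, adjusted p = 0.000339). Across the settings 2 to 5 oxidases and 3 to 7 peroxins were called lower, with 1 peroxin called higher under the length and GC correction, and Uox, Acox3, Pex19 and Pex26 were called in 10 of 10. Between Cd+Se and Cd, 2 oxidases and 3 peroxins were called higher, Uox, Acox3, Pex26 and Pex19 among them. In that comparison Acox3 was called in 9 of 10 settings, Pex19 in 7, Pex26 in 6 and Uox in 5, and 0 genes of both lists were called by limma with only the groups compared.

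Of 8 tested genes of the glutathione route, which removes peroxides beside the peroxiredoxins, 2 rose and 0 fell under Cd. Gclm, the regulatory subunit of glutathione synthesis, rose from 99.98 ± 3.40 to 155 ± 17.1 TPM (log2 change 0.63, adjusted p = 0.0205), and Gpx4, the peroxidase of membrane lipids, from 247 ± 25.3 to 340.0 ± 27.9 TPM (log2 change 0.46, adjusted p = 0.0384). Gclm was called in 9 of 10 settings and Gpx4 in 8 of 10. Between Cd+Se and Cd, limma called 0 genes of this route, and at most 1 in any other setting. Of 8 genes for oxidative folding in the endoplasmic reticulum, where Prdx4 works, Ero1a fell under Cd (9.45 to 5.67 TPM, adjusted p = 0.00434) and no other was called. Across the settings 0 to 3 genes of this list were called higher under Cd. Ero1a and Qsox1 were called higher in Cd+Se than in Cd mice, Ero1a in 9 of 10 settings and Qsox1 in 5 of 10. With only the groups compared neither passed (limma adjusted p = 0.081 and 0.127). In that comparison 0 to 2 genes of this list were called higher and 0 to 2 lower across the settings.

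**Figure D5:**
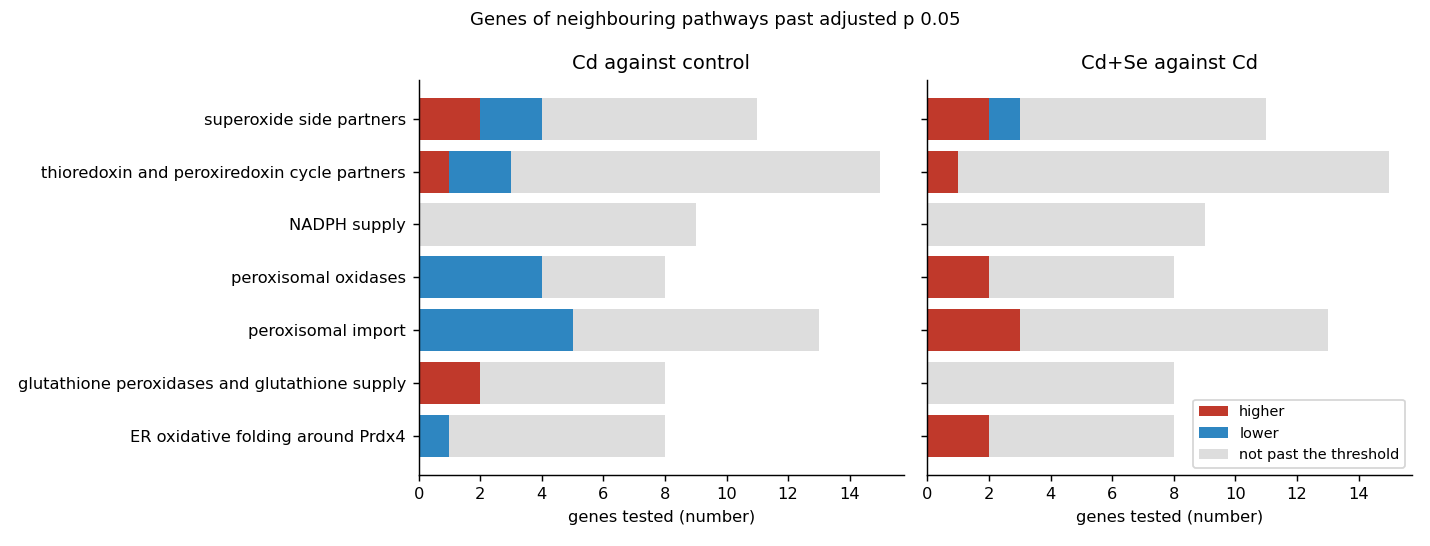
Number of tested genes (horizontal axis) in each of 7 lists of neighbouring pathways that were called higher (red), lower (blue) or not called (grey), for Cd against control (left) and Cd+Se against Cd (right). In the left panel the peroxisomal lists hold 4 of 8 and 5 of 13 genes called lower and none called higher.

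For each member the protein-coding gene with the most similar profile over the 16 libraries was found among 10473 genes, by Pearson's r of log2(TPM + 1), as a description without a test. Txn1 ran closest to Rps27l, a ribosomal protein S27-like gene (r = 0.95), which was 487 ± 20.2 TPM in control, 670.4 ± 80.1 in Cd and 501 ± 55.6 in Cd+Se mice. Sod2 ran closest to Ndufa2, a subunit of respiratory complex I (r = 0.93), and Sod1 to Timm13, a chaperone of mitochondrial import (r = 0.93). The next most similar gene reached r = 0.92 for both Sod2 and Sod1. Prdx5 ran closest to the apolipoprotein gene Apoc3 (r = 0.91) and Prdx3 to the translation factor gene Eif5a (r = 0.92). For the remaining members r was 0.82 (Prdx2 with Naxe) to 0.91 (Cat with Necab1). The 16 points share group means, library composition and scaling.

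The group labels and the tissue were checked once. The metallothionein genes Mt1 and Mt2, which answer Cd, were at 3178 and 2433 TPM or more in all 8 mice given Cd and at 431 and 306 TPM or less in the other 8. The hepatocyte markers summed to at least 43876 TPM in every library. The share of TPM in mitochondrial genes was 13.1, 12.9, 22.2 and 18.04% in Cd mice 1, 2, 5 and 6, and 16.4 to 17.3% in control mice. Cd mouse 5 had the highest share of all libraries and the lowest median level, while its lowest correlation with a mouse of its group was 0.9755, against 0.9749 to 0.9766 for the other Cd mice. Without it, 3 members were called in Cd against control (Txn1, Sod1 and Sod2) and the median gene moved by -0.09. Cell markers moved with Cd as well: 5 of 7 macrophage markers were called lower, with summed levels of 121 to 148 TPM in control and 67.2 to 90.4 TPM in Cd mice, and 3 of 4 tested neutrophil markers were called higher, from 6.58 to 16.7 TPM to 32.5 to 41.3 TPM. In Cd+Se mice the neutrophil sum was 45.95 to 76.6 TPM and the macrophage sum 103 to 145 TPM. Lyz2, which neutrophils also express, made up most of that sum, with a mean of 46.25 TPM in Cd and 83.9 TPM in Cd+Se mice. Of the macrophage markers, 3 were called higher in Cd+Se than in Cd mice and 0 lower. Clec4f, whose mean was not higher in Cd+Se than in Cd mice, had means of 42.7 TPM in control, 17.1 in Cd and 14.5 in Cd+Se mice. Vsig4 had means of 17.9, 3.87 and 4.74 TPM in these groups. Marco had means of 8.655, 2.76 and 5.475 TPM in these groups, and Adgre1 of 4.43, 1.30 and 2.96 TPM. Csf1r had means of 7.20, 3.62 and 4.97 TPM, and Cd68 of 5.465, 4.84 and 8.34 TPM. Of the neutrophil markers, Ly6g and Mpo stayed at or under 0.17 and 0.20 TPM in every library and were not tested. S100a8 had means of 3.78 TPM in control, 12.65 in Cd and 17.07 in Cd+Se mice, and S100a9 of 7.82, 21.25 and 33.4 TPM. Retnlg had means of 0.22, 1.76 and 3.11 TPM in these groups, and Csf3r of 0.74, 1.47 and 2.14 TPM. Of 5 tested erythroid markers 0 were called, with sums of 624 to 1683 TPM in control and 799 to 1388 TPM in Cd mice. Of 7 hepatocyte markers 1 was called higher and 2 lower, of 6 sinusoidal endothelial markers 1 higher and 2 lower, of 5 tested stellate markers 1 lower, and of 1 tested cholangiocyte marker 0. Of the 5 T and NK cell markers 0 were expressed highly enough to be tested. The part of these cell types in the changes of the 10 genes was not tested.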

How the data were processed

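The authors extracted RNA from whole mouse liver with TRIzol, selected poly(A) RNA and sequenced 16 libraries. They deposited 1 table of TPM, and the submitters' processing notes name fastp, HISAT2, StringTie and the build GRCh38, a human build, although the table lists mouse Ensembl identifiers; versions and library depth are not given in the sources used here. TPM keep no depth, so precision rests on 4 mice a group. The labels number the mice but do not give litter, cage or sequencing batch.

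Groups were taken from the labels' treatment field, with mouse numbers from the titles. The 11766 genes whose levels averaged 1 TPM or more were tested as log2(TPM + 1) with limma 3.58.1 in R 4.3.3, with 1 mean a group over 16 libraries, an intensity trend in eBayes, Benjamini-Hochberg adjustment and a threshold of 0.05, in 6 comparisons. A change on this scale understates that of low genes. The alternatives were a pseudocount of 0.1, no filter (27943 genes), only the 7390 genes averaging 5 TPM or more, centring on the median, quantile normalization, TPM rescaled over nuclear protein-coding genes, no trend, only the groups compared, a log2 change of at least 1, and leaving out each mouse. A loess correction for transcript length and GC content (span 0.5) was chosen after seeing the data.

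The members, the lists of partners and markers and the settings were chosen with earlier results of these data known. Named were the members, Mt1 and Mt2, up to 4 genes a list with the smallest adjusted p in Cd against control or Cd+Se against Cd, and for each member the gene most like it. A gene that the rule names is not reported here. Ccs and the single cell markers were named in addition, after their values were seen. Sod3, Prdx6b and the processed copies were also named outside the rule. Positions, lengths and coding stretches are from GENCODE M21 (GRCm38; 98.3% of genes tested had a length), and promoters from RefSeq. Steps were tested on simulated data.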

Additional observations from a re-analysis of the deposited data

Results flagged for a closer look

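In 40 sets of 4 mice (10 genes in 4 groups), a mouse was marked where its gap to the nearest other mouse, divided by the range of its group, exceeded Dixon's 95% critical value. Chance gives such a mark in about 1 in 20 groups, or 2 of these 40, and 4 were found. Sod2 gave 2 of them. In control mice the ratio was 0.916, with mouse 27 at 93.2 TPM and the next at 70.2 TPM. In Cd mice it was 0.895, with mouse 1 at 113 TPM and the next at 96.6 TPM. Prdx3 gave a ratio of 0.853 in Se mice, with mouse 40 at 98.9 TPM and the next at 77.3 TPM. Prdx5 gave a ratio of 0.846 in Cd mice, with mouse 6 at 149.8 TPM below the next at 172 TPM, and this mouse is the one that overlapped the control mice.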

How the results depend on the processing

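The number of members called in Cd against control, 4 as reported, was 0 with a log2 change of at least 1, 7 under median centring, 2 with the length and GC correction, and 1 to 4 when each mouse was left out. In Cd+Se against Cd, 2 as reported, it was 0 with a log2 change of at least 1 and with only the groups compared, 1 without the filter and without the trend, 6 under median centring, 4 with TPM rescaled over nuclear protein-coding genes, and 1 to 3 when each mouse was left out. For the interaction, 0 as reported, it was 1 under quantile normalization, rescaling or the length and GC correction, and 2 under median centring. In the other comparisons 0 members were called under every alternative. Under median centring the median gene moved by 0.05 in Cd against control and by -0.02 in Cd+Se against Cd. As reported it moved by -0.17 and 0.17. The share of all genes called under each alternative is not given here, so these counts are not to be read as results about the members.

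Log2 changes that turned in sign were, in Cd against control, those of Cat (0.05, centring), Prdx1 (-0.044, quantile) and Prdx6 (0.137 centring, 0.053 length and GC). In Cd+Se against Cd they were those of Cat (-0.141 centring, -0.001 rescaled, -0.073 length and GC, -0.010 to 0.101 leaving out a mouse), Prdx1 (-0.140 centring, 0 rescaled, -0.064 length and GC, -0.046 to 0.156 leaving out a mouse), Prdx3 (-0.013 quantile, -0.153 centring, -0.012 rescaled, -0.064 length and GC, -0.065 to 0.088 leaving out a mouse) and Prdx6 (-0.003 quantile, -0.149 centring, -0.010 rescaled, -0.084 length and GC). In Cd+Se against control they were those of Sod1 (-0.117 quantile, -0.028 length and GC, -0.001 to 0.076 leaving out a mouse), Prdx5 (-0.085 to 0.028) and Txn1 (-0.012 to 0.109). The cause was not tested. The mouse numbers pair no samples across groups, so no paired analysis was possible because the groups share no number. The unknown depth leaves counting error unmeasured.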

Other observations

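The 10 transcripts together took 3963 ± 154 TPM in control, 4335 ± 434 in Cd, 4156 ± 443 in Se and 3986 ± 189 in Cd+Se mice (SD, n = 4). Sod3 and the copies of the members listed under their names were scarce in these livers. This does not cover the other thioredoxin genes. Sod3, the extracellular superoxide dismutase, was listed at no more than 5.54 TPM, and Prdx6b, a near copy of Prdx6, at no more than 0.02 TPM. The processed copies Prdx1-ps, Prdx2-ps1, Prdx2-ps2 and Prdx6-ps2 were listed at 0, and Txn-ps1 was above 0 in 1 library, at 1.12 TPM.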
